A study of Mus musculus with 8 samples.

Results

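The CDK inhibitors Cdkn1a, Cdkn1b, Cdkn2a, Cdkn2b, Cdkn2c and Cdkn2d, the D cyclins Ccnd1, Ccnd2 and Ccnd3, and the stress sensor Gadd45g were followed in mammary tumor organoids with and without SOX4. These 10 genes were taken by name as regulators of entry into and exit from the cell cycle, out of 38293 gene identifiers in the bulk counts and 15150 gene names in the single-cell counts, and every member was present in both. The organoids came from tumors of MMTV-PyMT; MMTV-Cre; Ecadherin-mCFP mice, in which the MMTV promoter drives the polyoma middle T oncogene and Cre in mammary epithelium, and control and SOX4KO lines alike carry these transgenes. SOX4KO lines were made with CRISPR/Cas9, each line is a clone, and all were cultured for 4 days with FGF2 before RNA was taken. Bulk RNA was sequenced from 2 control lines (WT1 and WT3) and 3 SOX4KO lines (H7, M4 and H4), and single cells were sorted into plates from 1 control line (GR17) and 2 SOX4KO lines (GR18 and GR19). Which bulk line corresponds to which single-cell line is not given by the labels.

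Cells leave G1 when D cyclins activate CDK4 and CDK6, which phosphorylate the retinoblastoma protein and release E2F factors. The INK4 inhibitors p15 (Cdkn2b), p16 (from Cdkn2a), p18 (Cdkn2c) and p19 (Cdkn2d) bind CDK4 and CDK6, whereas p21 (Cdkn1a) and p27 (Cdkn1b) bind cyclin-CDK complexes more broadly. Cyclin D1 is an established driver of mammary tumors, and cyclin D2 and D3 can take over part of its role.

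The bulk libraries held 3050323 to 4678497 reads on genes, and the single-cell libraries held 369, 369 and 362 cells of at least 1000 UMIs (unique molecular identifiers, 1 per captured transcript). Sox4 RNA was not called lower in SOX4KO lines (log2 fold change −0.57, adjusted p = 0.277 by edgeR), so transcript counts did not separate the genotypes at the targeted gene. In single cells Sox4 was at 118 CPM in GR17, 82.5 in GR18 and 110 in GR19. The paper reports a bi-allelic indel in the SOX4KO lines it first selected, and loss of the protein by western blot. Gene counts measure neither. Epithelial markers were high in every library, whereas the summed immune markers were at most 0.261 CPM (counts scaled to library size) in bulk, with Cd3e, Itgam and Lyz2 at 0 in all lines. In single cells, where 2 of the 6 immune genes were listed, they summed to 0.13 CPM in GR17, 6.87 in GR18 and 5.42 in GR19. Fibroblast markers summed to 87.8 and 102 CPM in WT1 and WT3, and to 91.3, 56.2 and 75.9 CPM in H7, M4 and H4. In single cells they were at 5.31, 5.74 and 4.34 CPM in GR17, GR18 and GR19. Basal markers summed to 677 and 509 CPM in WT1 and WT3 and to 957, 1452 and 667 CPM in H7, M4 and H4, whereas in single cells they were at 3680 CPM in GR17, 3262 in GR18 and 1662 in GR19. Luminal markers summed to 2029 and 1883 CPM in WT1 and WT3 and to 1800, 1362 and 3776 CPM in H7, M4 and H4, and in single cells to 1057 CPM in GR17, 1507 in GR18 and 3211 in GR19. The part of these marker levels in the values of the regulators was not tested, and in bulk fewer cells of a type and less RNA per cell cannot be told apart.

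In bulk, Ccnd2, Cdkn2b and Ccnd1 were higher in SOX4KO lines, and no member was called lower. The quasi-likelihood test of edgeR covered 11682 genes, and with a limit of 0.1 on the adjusted p it called 6.27% of them, 4.1% higher and 2.17% lower. Thus 3 of 10 members were called, all higher, and DESeq2 called the same 3. With an unadjusted limit of 0.05 both edgeR and DESeq2 would have taken 1 lower member, and neither tool called it. In either direction that limit took 5 of 10 members in edgeR, beside 2113 of all 11682 genes. The lines of each genotype did not overlap for 6 of the 10 members, against 36.9% of all genes tested.

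Ccnd2 encodes cyclin D2 and lies on chromosome 6 (ENSMUSG00000000184). Its levels were 35.5 and 44.2 CPM in WT1 and WT3, against 401, 127 and 201 CPM in H7, M4 and H4. Every SOX4KO line was above both control lines, and the SOX4KO lines also differed widely from each other. The means were 39.8 ± 6.18 (SD, n = 2) and 243 ± 142 CPM (SD, n = 3), a 6.09-fold difference (log2 fold change 2.61, SE 0.47, adjusted p = 0.0298, edgeR). Ccnd2 overlaps the antisense genes Gm43126 and 9330179D12Rik on the other strand, and the strand setting of the counting is not given in the sources used here, so their reads cannot be told apart.

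Cdkn2b encodes p15, an INK4 inhibitor known as a target of TGF-beta signalling (chromosome 4, ENSMUSG00000073802). Its levels were 13.5 and 12.1 CPM in WT1 and WT3, and 42.3, 28.1 and 52.0 CPM in H7, M4 and H4. The groups did not overlap, and the means of 12.8 ± 0.929 (SD, n = 2) and 40.8 ± 12.0 CPM (SD, n = 3) differed 3.21-fold (log2 fold change 1.68, SE 0.29, adjusted p = 0.0283, edgeR). The neighbouring Cdkn2a, described further on, was not called.

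Ccnd1, encoding cyclin D1 (chromosome 7, ENSMUSG00000070348), stood at 537 and 468 CPM in WT1 and WT3, and at 1039, 943 and 1300.5 CPM in H7, M4 and H4. The lowest SOX4KO line was well above the higher control line. The means were 502 ± 48.7 (SD, n = 2) and 1094 ± 185 CPM (SD, n = 3), a 2.18-fold difference (log2 fold change 1.12, SE 0.22, adjusted p = 0.0376, edgeR). Ccnd1 shares its locus with LTO1 on the other strand.

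With 1 control line left out, the spread came from the SOX4KO lines alone and the lone control line was assumed to vary like them. Without WT1 the log2 fold changes were 2.46 for Ccnd2, 1.75 for Cdkn2b and 1.23 for Ccnd1, with adjusted p of 0.178, 0.144 and 0.212. Without WT3 they were 2.78, 1.60 and 1.03, with adjusted p of 0.224, 0.290 and 0.424, so that 0 members were called in either case, while the fold changes stayed near those of the full fit.

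**Figure D1:**
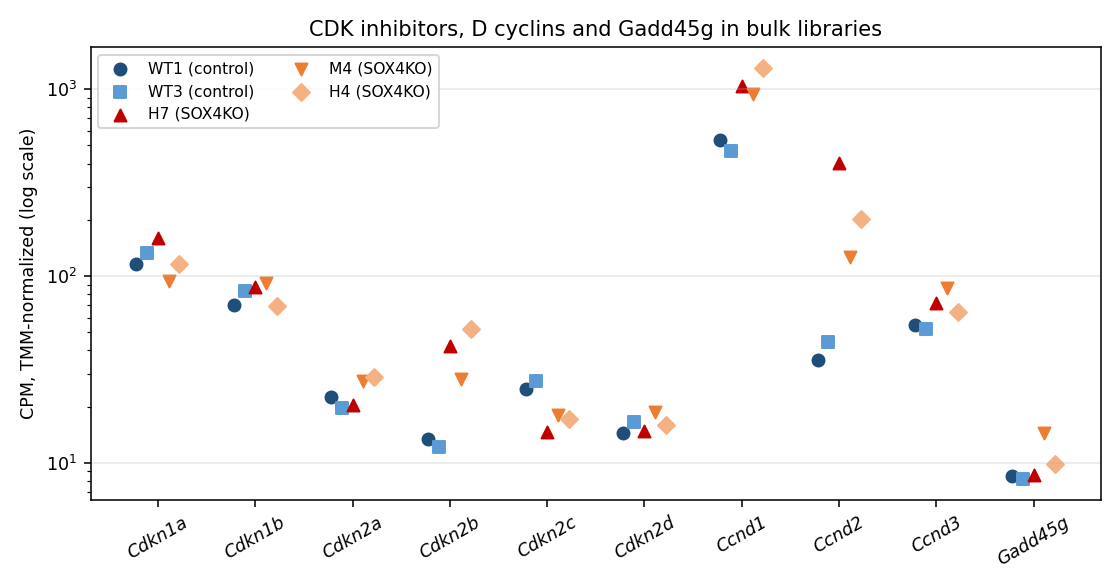
TMM-normalized CPM of each member (log scale) in the 2 control and 3 SOX4KO bulk lines, 1 symbol per line. For Ccnd2, Cdkn2b and Ccnd1 all 3 SOX4KO lines lie above both control lines, and for Cdkn2c all 3 lie below them.

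The third D cyclin, Ccnd3 (chromosome 17), was at 54.9 and 52.0 CPM in control lines and at 71.5, 86.7 and 63.9 CPM in SOX4KO lines. The groups did not overlap, but the log2 fold change of 0.47 (SE 0.19) did not pass the threshold (adjusted p = 0.246, edgeR). Ccnd3 overlaps Bysl on the other strand. Corrected for exon length, Ccnd1 took 91.9% and 90.3% of D cyclin CPM per kilobase in WT1 and WT3, and 81.3%, 89.6% and 90.6% in H7, M4 and H4. The share of Ccnd2 on the same scale was 3.04% and 4.27% in control lines, against 15.7% in H7, 6.02% in M4 and 7.01% in H4. Cyclin D1 therefore remained the most abundant D cyclin transcript in all 5 lines.

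Cdkn2c, encoding p18, was the only member with every SOX4KO line below both control lines. Its levels were 24.9 and 27.5 CPM in WT1 and WT3, and 14.6, 18.0 and 17.2 CPM in H7, M4 and H4. The log2 fold change of −0.66 (SE 0.21) was not called (adjusted p = 0.151, edgeR).

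The CIP/KIP inhibitors showed no called difference. Cdkn1a, the p53 target p21, was at 116 and 133 CPM in control lines and at 159, 94.7 and 115 CPM in SOX4KO lines (it overlaps AC167363.2 on the other strand), with a log2 fold change of −0.01 and a 95% interval from −0.55 to 0.52. Cdkn1b, encoding p27, gave 0.10 (interval −0.34 to 0.55). The SOX4KO lines lay on both sides of the control lines for both genes.

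Of the remaining INK4 genes, Cdkn2a gave a log2 fold change of 0.27 (interval −0.26 to 0.80) and Cdkn2d, encoding p19, gave 0.08 (interval −0.46 to 0.63). The p16 and ARF products of Cdkn2a start from separate promoters, and gene counts cannot tell them apart. Gadd45g, a growth arrest and DNA damage inducible gene, was at 8.54 and 8.17 CPM in control lines and at 8.61, 14.4 and 9.82 CPM in SOX4KO lines. H7 was barely above WT1, and the log2 fold change of 0.37 (interval −0.37 to 1.12) was not called.

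By the root mean square distance between log2 levels over the 5 lines, centred per gene, the genes most like Ccnd2 among 9539 were Apobec1, Adamts15 and Mest. Those most like Cdkn2b were Aox1, Fkbp5 and Slco3a1, and those most like Ccnd1 were Trim7, Anxa3 and Cnst. Aox1 came closest to Cdkn2b, at a distance of 0.0629, whereas the nearest gene to Ccnd2 was at 0.314.

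Among the machinery on which these regulators act, Cdk4, the main partner of D cyclins, was lower in SOX4KO lines. Its levels were 260.4 and 345 CPM in WT1 and WT3, against 133, 177 and 139 CPM in H7, M4 and H4 (log2 fold change −1.02, adjusted p = 0.0418, edgeR). Without WT1 it was −1.21 (adjusted p = 0.126) and without WT3 −0.80 (adjusted p = 0.457). Of 26 tested G1/S genes edgeR called Cdk4 alone, with 6 falling at an unadjusted limit of 0.05, and DESeq2 called 3 lower, Cdk4, Ccna2 and E2f2. The median log2 fold change of the list was −0.29 against 0.01 over all genes, and 0 were called higher by edgeR or DESeq2, with 1 rising at an unadjusted limit of 0.05. Of 24 p53 targets and stress sensors, Phlda3 (1.29) and Perp (0.87) were called higher on the log2 scale with both control lines, and neither without WT1 or WT3, and 0 were called lower by edgeR or DESeq2, with 3 falling in edgeR at an unadjusted limit of 0.05. Of 18 genes of transcription and turnover of the members, edgeR called 0, or 3 at an unadjusted limit of 0.05, and DESeq2 called 1, Foxo1. In either direction the unadjusted limit took 7 of 26, 7 of 24 and 3 of 18 genes of these lists in edgeR. Over all genes it took 2113 of 11682. The proliferation genes Top2a (log2 fold change −0.78, adjusted p = 0.0718) and Mki67 (−0.85, adjusted p = 0.0822) were called lower in the same fit.

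In the single-cell libraries the 3 members that were higher in bulk SOX4KO lines were lower in both SOX4KO libraries. With 1 control library no test was run, and genotype, line and library cannot be told apart. Levels are CPM of UMIs summed over cells, with exact Poisson 95% intervals that cover counting error only. Cdkn2b was at 23.3 CPM in GR17 (interval 20 to 27), at 10.6 in GR18 (8.48 to 13.1) and at 14.7 in GR19 (12.2 to 17.6). Ccnd1 was at 963 CPM in GR17 (941 to 985), at 785 in GR18 (765 to 804) and at 877 in GR19 (857 to 897). For both genes the interval of the control library lay above those of both SOX4KO libraries. Ccnd2 was at 76.2 CPM in GR17 (70.2 to 82.6), at 73.0 in GR18 (67.2 to 79.2) and at 48.7 in GR19 (44.1 to 53.7), so that only GR19 was apart from the control library.

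For comparison, of 246 genes called higher in bulk with at least 20 CPM on average in single cells, 61.4% were higher and 17.9% lower in both SOX4KO libraries. Ccnd1 and Ccnd2 are among the latter, and Cdkn2b is below that level. Over all 6303 genes at that level, 42.5% were lower and 38.8% higher in both. Bulk and single-cell libraries were made by different methods, and whether their lines are the same is not given. The part of either in the opposite directions was not tested.

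**Figure D2:**
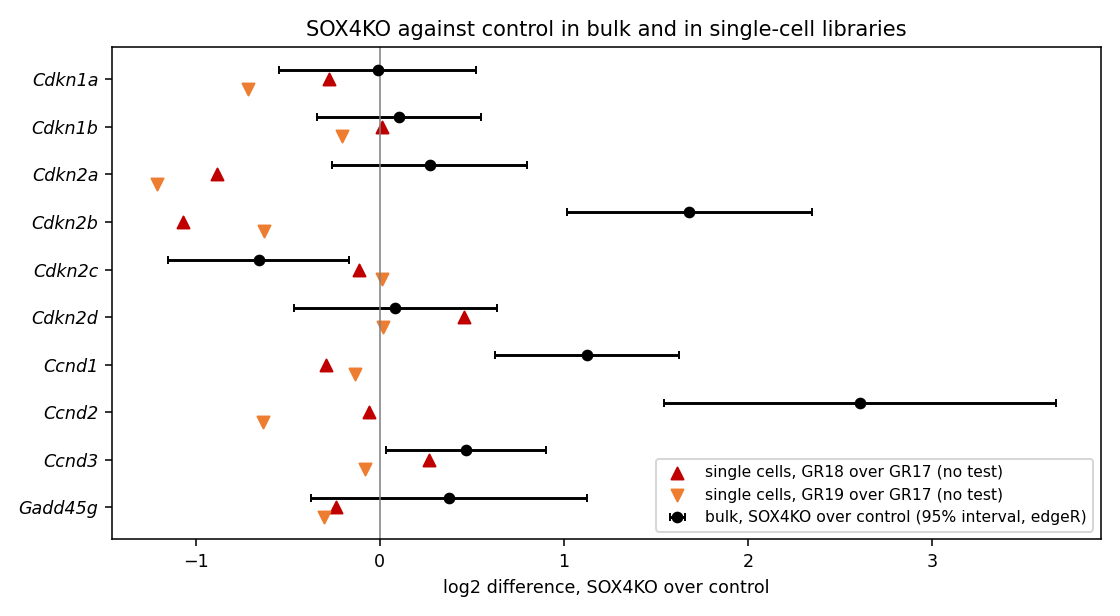
Log2 difference of SOX4KO over control for each member, in bulk (black, with the 95% interval of edgeR) and in the single-cell libraries GR18 and GR19 over GR17 (triangles, 1 CPM added, no test). Cdkn2b, Ccnd1 and Ccnd2 lie right of 0 in bulk and left of 0 in both single-cell comparisons.

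Altogether 6 of 10 members were lower in both SOX4KO libraries, among them Cdkn2b and Cdkn2a, which are below the level of 20 CPM. Of the 7 members at that level 0 differed 2-fold or more in both, against 2.24% of the 6303 genes. Cdkn1a was at 276 CPM in GR17, 228 in GR18 and 168 in GR19, with no overlap of intervals, while its bulk levels overlapped between genotypes. Cdkn2a was at 6.61, 3.12 and 2.29 CPM, from 51, 25 and 19 UMIs, so that GR17 was 2.12-fold above GR18 and 2.89-fold above GR19. Gadd45g was at 30.5, 25.7 and 24.5 CPM, with intervals that overlapped. Cdkn2d was the only member higher in both, at 16.1, 22.5 and 16.3 CPM, and the difference in GR19 was within counting error. Cdkn1b (53.9, 54.4 and 46.6 CPM), Cdkn2c (30.1, 27.7 and 30.4) and Ccnd3 (25.0, 30.3 and 23.6) took no common direction.

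After thinning each cell to 5000 UMIs, Ccnd1 was seen in 95% of 361 GR17 cells (exact binomial 95% interval 92.2 to 97.0), 87.4% of 365 GR18 cells (83.5 to 90.6) and 90.2% of 358 GR19 cells (86.7 to 93.1). At full depth the shares were 98.1%, 97.3% and 97.2%. Ccnd2 was seen in 26.9%, 25.8% and 17.3% of thinned cells. Since Ccnd1 was seen in most cells of any kind, most Ccnd2-positive cells held it too. Cells with Ccnd2 and no Ccnd1 numbered 1 in GR17, 11 in GR18 and 1 in GR19. Whether the genes go together within cells was not tested. At this depth a missing UMI does not show that a transcript was absent.

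Top2a, a topoisomerase made in S, G2 and M phase, was used to split the cells by cycling state. Cells without Top2a UMIs still held Mki67, at 75.9 CPM in GR17, 94.9 in GR18 and 144 in GR19, against 263, 276 and 323 CPM in cells with them, so the negative class was mixed and differed between libraries. At least 1 Top2a UMI was seen in 77.8% of GR17 cells, 61.8% of GR18 cells and 59.9% of GR19 cells, and after thinning in 54.8%, 35.6% and 36.9%. The fit after thinning set the classes anew from the thinned counts, so it did not compare the same cells as the main fit. Cells without Top2a UMIs then numbered 163, 235 and 226 in GR17, GR18 and GR19, against 82, 141 and 145 at full depth. Cells with Top2a UMIs were deeper, with medians of 21459, 23138 and 25360 UMIs against 15142.5, 15592 and 16627 without. UMIs were summed per library and class, and the 6 sums were compared by edgeR with library as a block. Of 10691 genes, 27.8% were called, 14.5% higher and 13.3% lower in Top2a-positive cells.

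The INK4 genes Cdkn2d and Cdkn2c had a higher CPM in Top2a-positive cells of all 3 libraries. Cdkn2d rose from 5.42 to 18.2 CPM in GR17, from 9.20 to 28.1 in GR18 and from 9.18 to 19.5 in GR19 (log2 fold change 1.39, SE 0.21, adjusted p = 4.4e-05, edgeR). Cdkn2c rose from 10.1 to 34.1 CPM in GR17, from 20.9 to 30.6 in GR18 and from 16.1 to 37.0 in GR19 (log2 fold change 1.02, SE 0.18, adjusted p = 0.000375, edgeR). Cdkn2d and Cdkn2c were the only members called in every one of these fits: DESeq2, no library block, thinning, and each library left out.

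In all, 4 of 10 members were called higher and 2 lower. Ccnd3 (log2 fold change 0.50, adjusted p = 0.0435) stood at 12.4, 27.2 and 18.0 CPM without Top2a UMIs and at 27.6, 31.7 and 26.2 CPM with them. Ccnd2 (0.39, adjusted p = 0.0516) rose from 64.3 to 78.6 CPM in GR17 and from 44.7 to 85.1 in GR18, but was at 49.3 and 48.4 in GR19. The call for Ccnd2 rested on GR18, without which the log2 fold change was 0.08 (adjusted p = 0.766, edgeR). For Ccnd3 it was lost without GR17 (0.33, adjusted p = 0.190) and without GR19 (0.49, adjusted p = 0.179).

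Cdkn1a and Gadd45g were called lower in Top2a-positive cells. Cdkn1a went from 283 to 274 CPM in GR17, from 235 to 224 in GR18 and from 200.1 to 153 in GR19 (log2 fold change −0.19, adjusted p = 0.0659, edgeR), so that most of the difference was in GR19. Gadd45g went from 34.9 to 29.6 CPM, from 35.1 to 21.7 and from 26.0 to 23.8 (−0.39, adjusted p = 0.0706, edgeR). Cdkn1a lost its call without GR18 (−0.26, adjusted p = 0.103) and without GR19 (−0.09, adjusted p = 0.568), and Gadd45g without GR18 (−0.22, adjusted p = 0.5). DESeq2 called neither gene, and without the library block neither was called. After thinning, with the classes set anew, Gadd45g kept its call (−0.78, adjusted p = 0.0224, edgeR) and Cdkn1a did not (−0.11, adjusted p = 0.568). With at least 2 Top2a UMIs required of positive cells, Gadd45g was at −0.70 (adjusted p = 0.00304, edgeR) and Cdkn1a at −0.25 (adjusted p = 0.0486).

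**Figure D3:**
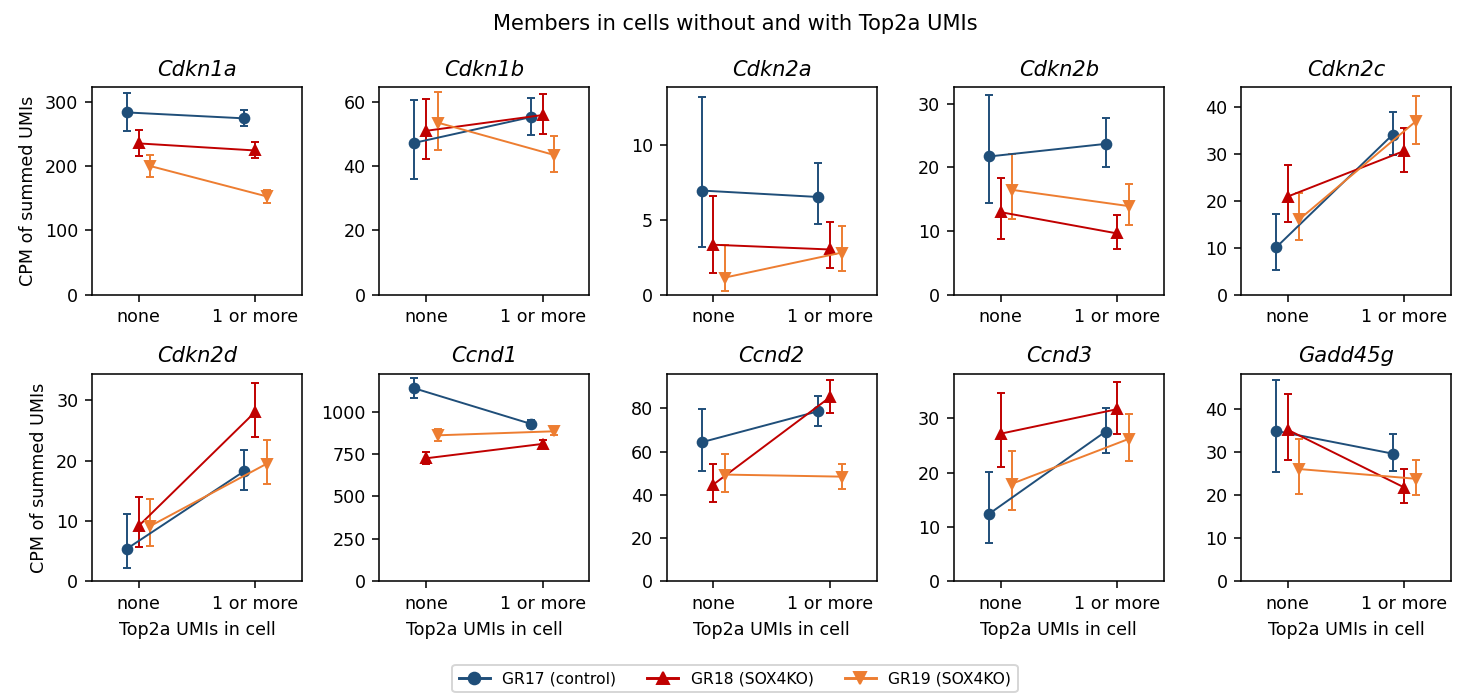
CPM of summed UMIs of each member in cells without and with Top2a UMIs, per library, with exact Poisson 95% intervals (axes start at 0). Cdkn2c and Cdkn2d are higher with Top2a UMIs in all 3 libraries, while Cdkn1a keeps the order GR17, GR18, GR19 in both classes.

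The members that were not called between the classes were Ccnd1 (−0.06, 95% interval −0.18 to 0.07), Cdkn1b (−0.03, −0.28 to 0.22), Cdkn2b (−0.20, −0.58 to 0.19) and Cdkn2a (0.17, −0.68 to 1.03). With cells split by Mki67 in place of Top2a, Ccnd1 (−0.25, adjusted p = 0.00123, edgeR) and Cdkn1b (−0.27, adjusted p = 0.0992) were called lower in the positive cells. Within the Top2a-negative cells Cdkn2b stood at 21.7, 13 and 16.4 CPM in GR17, GR18 and GR19, and within the Top2a-positive cells at 23.7, 9.61 and 13.9 CPM. The order of the libraries was thus the same in both classes. Among Top2a-negative cells, though, the Poisson 95% intervals of Cdkn2b all overlapped (14.4 to 31.3, 8.80 to 18.4 and 11.9 to 22.2). Ccnd1 likewise kept GR17 above GR19 and GR19 above GR18 in both. For Ccnd2 the order changed, since GR18 was above GR17 among Top2a-positive cells only. There the intervals of GR17 (71.9 to 85.8) and GR18 (77.6 to 93.1) overlapped.

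In 3 bins of Top2a UMIs, chosen after the values were seen and given without a test, Cdkn2c took no common direction between the lower 2 bins and was highest in the top bin of every library. It stood at 10.1, 15.4 and 44.8 CPM in GR17 cells with 0, 1 to 4, and 5 or more Top2a UMIs, at 20.9, 14.5 and 51.7 in GR18 and at 16.1, 18.7 and 54.4 in GR19. Cdkn2d was higher at each step in every library, for example at 9.20, 22.0 and 36.1 CPM in GR18. Gadd45g was lowest in the top bin, at 24.0, 13.5 and 14.1 CPM in GR17, GR18 and GR19. Between the lower 2 bins it took no common direction. With 0 Top2a UMIs it was at 34.9, 35.1 and 26.0 CPM in these libraries, and with 1 to 4 at 39.4, 28.0 and 33.8. Cdkn1a was at 200.1, 166 and 140.5 CPM over the bins in GR19, and at 283, 259 and 283 CPM in GR17.

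**Figure D4:**
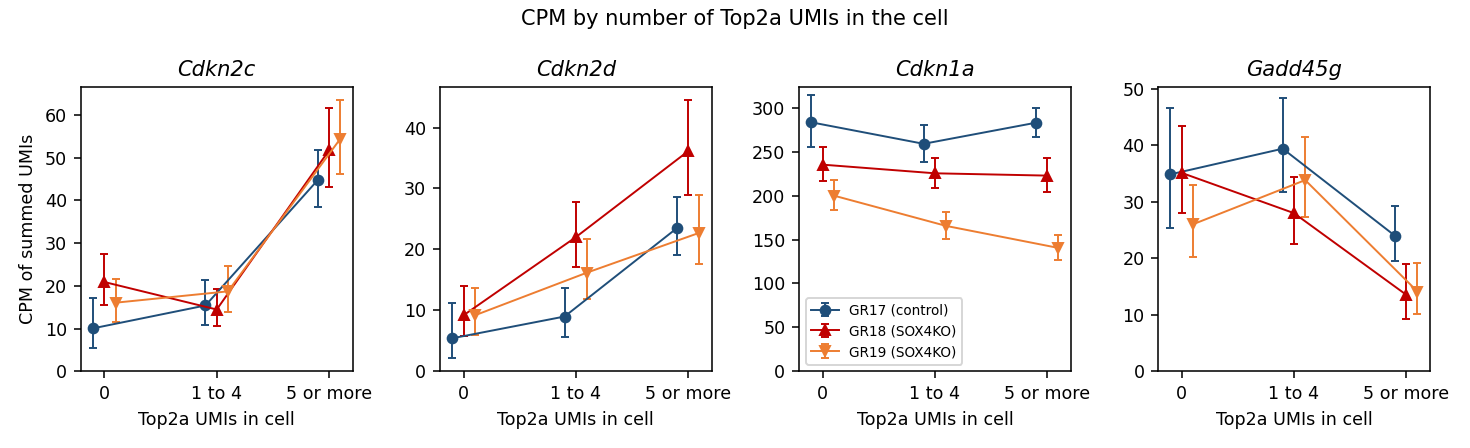
CPM of Cdkn2c, Cdkn2d, Cdkn1a and Gadd45g in cells with 0, 1 to 4, and 5 or more Top2a UMIs, per library, with exact Poisson 95% intervals (axes start at 0). Cdkn2c reaches 44.8 to 54.4 CPM in the top bin, and Gadd45g is lowest there in all 3 libraries.

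Of 26 G1/S genes, 17 were called higher with Top2a and 1, Rb1, lower (log2 fold change −0.64), beside the 14.5% and 13.3% of all genes given before. Among them were Fbxo5 (3.76), an inhibitor of the anaphase-promoting complex, E2f7 (2.74) and E2f8 (2.29), which are repressive E2F factors, cyclin E genes Ccne2 (2.43) and Ccne1 (2.13), the cyclin A gene Ccna2 (1.72), Skp2 (1.25), which targets p27 for degradation, and the E2F partner Tfdp1 (1.15). DESeq2 called 12 of the G1/S genes higher, Ccne2 and Tfdp1 not among them, and 0 lower. Of 24 p53 targets and stress sensors 8 were lower in edgeR, led by Trp53inp1 (−1.34), Btg2 (−0.71) and Mdm4 (−0.53). Another 2 were higher, Aen (0.51) and Trp53 (0.26). From that list DESeq2 called 3 lower, Btg2, Perp and Trp53inp1, and 1 higher, Aen. Of 18 genes of transcription and turnover 3 were lower, Foxo4 (−0.61), Smad3 (−0.42) and Klf6 (−0.21), and 0 were higher by edgeR, also at the unadjusted limit. DESeq2 called 0 of them in either direction, with 2 lower at the unadjusted limit, and without the library block these 3 calls were lost. Smad3 was at −0.04 after thinning.

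Promoter sequence was matched by symbol in a set of RefSeq promoters (GRCm38.p6) for 8 of 10 members, and Ccnd1 and Ccnd2 were not listed in that set. The 250 bases before the annotated start, or before the first of 2 listed starts for Cdkn1a and Cdkn2c, are shown for Cdkn2b, which was called in bulk, for Cdkn2c and Cdkn2d, which rose with Top2a, and for Cdkn1a. They lie at chr4:89311033-89311282, chr4:109666757-109667006 and chr9:21291210-21291459 on the minus strand, and at chr17:29090729-29090978 on the plus strand. Each is written 5′ to 3′ on the gene's strand, and capitals mark the motif matches described after them.
Cdkn2b: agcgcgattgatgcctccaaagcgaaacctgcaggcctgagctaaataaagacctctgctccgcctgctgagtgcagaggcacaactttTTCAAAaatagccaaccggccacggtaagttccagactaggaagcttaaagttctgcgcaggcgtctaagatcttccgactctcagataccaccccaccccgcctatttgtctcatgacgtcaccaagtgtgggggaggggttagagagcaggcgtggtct
Cdkn2c: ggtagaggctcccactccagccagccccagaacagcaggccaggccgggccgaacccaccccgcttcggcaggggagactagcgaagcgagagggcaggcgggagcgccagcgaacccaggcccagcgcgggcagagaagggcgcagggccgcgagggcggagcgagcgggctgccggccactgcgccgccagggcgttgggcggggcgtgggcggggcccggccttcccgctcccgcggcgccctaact
Cdkn2d: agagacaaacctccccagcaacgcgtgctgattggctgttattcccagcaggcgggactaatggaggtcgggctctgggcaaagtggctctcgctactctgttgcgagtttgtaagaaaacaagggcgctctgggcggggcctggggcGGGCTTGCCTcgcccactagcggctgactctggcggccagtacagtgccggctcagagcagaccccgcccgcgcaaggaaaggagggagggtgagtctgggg
Cdkn1a: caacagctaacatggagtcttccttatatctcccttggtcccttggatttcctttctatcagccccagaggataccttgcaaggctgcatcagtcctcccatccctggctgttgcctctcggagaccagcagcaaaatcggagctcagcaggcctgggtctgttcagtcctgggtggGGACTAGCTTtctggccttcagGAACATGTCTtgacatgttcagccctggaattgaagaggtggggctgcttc

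The motifs searched on both strands were chosen after the values were seen, and a match is a description, not a binding site. An E2F-like TTTNNCGC was in 4.28% of all 32851 promoters of this length and in both Cdkn2a promoters. TTTGAA, known as the cell cycle homology region, was in 16.0% of promoters and in that of Cdkn2b, on the opposite strand. Of the SOX-type motifs, AACAAT (9.42% of promoters) matched no member, and ACAAAG (16.5%) matched 1 Ccnd3 promoter on the opposite strand. The search for p53 half-sites was added after the Cdkn1a promoter had been read by eye. It was run first as a pair of half-sites at most 13 bases apart, which matched 0.0639% of promoters and, among the members, only the first Cdkn1a promoter, with 12 bases between the half-sites. It was then run for single half-sites, which are in 7.13% of promoters, and these matched the first Cdkn1a promoter at 2 places, the second at 0 and that of Cdkn2d at 1. The second form was chosen after the match of the first was seen.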

How the data were processed

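Bulk RNA was sequenced from 5 organoid lines and single-cell RNA from 3. The authors deposited raw read counts per gene (HTSeq, without normalization) for bulk and raw UMI counts per gene and well for single cells. The submitters' processing notes name STAR 2.4.2a and the builds NCBIM37 and mm9, while symbols and exon lengths were taken here from GENCODE on GRCm38, so gene coordinates are not printed. Lines are separate clones, and nothing in the labels ties them to separate animals, so p-values measure the spread between clones.

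For bulk, edgeR 4.0.16 in R 4.3.3 was used with filterByExpr, TMM factors and the quasi-likelihood functions glmQLFit and glmQLFTest, with Benjamini-Hochberg adjustment over all genes tested and calls under 0.1. DESeq2 1.42.0 was an alternative. Wells with at least 1000 UMIs were kept, and doublets were not removed. Every plate uses the same 384 well numbers, so well names are shared by all libraries and show no shared cells. UMIs were summed per library and Top2a class and fitted with library as a block, since both sums of a library come from the same plate. Both fits were tested on simulated data. In bulk, 194 of 200 genes changed 3-fold were recovered, with 9 false calls among 11682 genes. For the Top2a classes 191 of 200 genes changed 2-fold were recovered, with 24 false calls among 10691. The changes were placed only in genes above a minimum mean count, and all genes were given the same spread. Recovery of genes with low counts or a wider spread, and of smaller changes, was thus not tested. Named genes are all members, Sox4, Top2a and Mki67, the called genes of 3 pathway lists (at most 8 per list) and the 3 genes most like each called member. The members, lists and tests were chosen with earlier results of these data known. The promoter motifs and the bins of Top2a UMIs were chosen after the values were seen, and the p53 motif was searched in 2 forms.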

Additional observations from a re-analysis of the deposited data

Results flagged for a closer look

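The difference between Top2a-positive and Top2a-negative cells had one sign in the control library and the other sign in both SOX4KO libraries for 2 members. For Cdkn2b it was 0.12 in GR17, −0.40 in GR18 and −0.23 in GR19 on the log2 scale with 1 CPM added. For Ccnd1 it was −0.29 in GR17, 0.16 in GR18 and 0.04 in GR19. For Cdkn2b the Poisson intervals of the Top2a classes overlapped in every library, so its signs were within counting error. In GR17 they were 14.4 to 31.3 without and 20.1 to 27.7 CPM with Top2a UMIs. Those of Ccnd1 overlapped in GR19 (825 to 897 and 860 to 909 CPM), but not in GR17 or GR18. Such a split of signs was seen for 18.4% of 6297 genes. Cdkn2b is below the level of 20 CPM, so this share does not cover it. The difference between the libraries was not tested.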

How the results depend on the processing

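Leaving out 1 control line took the bulk calls of members, all of them higher, from 3 to 0, while the range over the 5 lines left out was 0 to 3. Pathway list genes called in bulk numbered 3, against 6 by DESeq2, 13 with no filter beyond 1 count and 0 to 7 with 1 line left out. For the Top2a split, 6 members were called (4 higher, 2 lower). DESeq2 called 2 (2 higher, 0 lower), thinning to 5000 UMIs left 3 (2 higher, 1 lower), and the Mki67 gate called 5 (2 higher, and Cdkn1a, Ccnd1 and Cdkn1b lower). The fit with no replicate block, that is without the library term, called 2 members (2 higher, 0 lower) and 7 pathway list genes. Leaving out 1 library gave 3 to 5 members, of them 3 higher and 0 to 2 lower, and without wells over 2 times the median 1 was lower. Pathway list genes called by the split numbered 31, against 16 by DESeq2, 15 after thinning and 17 to 27 with 1 library left out. In the single-cell libraries, members higher in both SOX4KO libraries numbered 1, against 2 with totals without mitochondrial genes and Rn45s, 0 without high wells, 4 in Top2a-negative cells alone and 2 to 3 with 1 SOX4KO library left out.

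Uncalled values in bulk changed sign with 1 line left out for Cdkn1a (−0.24 to 0.14), Cdkn1b (−0.016 to 0.24) and Cdkn2d (−0.012 to 0.19). In the Top2a split, with 1 library left out, they did so for Cdkn1b (−0.12 to 0.14), Cdkn2a (−0.14 to 0.37) and Ccnd1 (−0.16 to 0.058). Cdkn1b was also at 0.12 after thinning and Cdkn2a at −0.24 with the Mki67 gate. Of the called list genes, Plk2 turned to 0.044 after thinning, and Mdm4 to 0.25 with the Mki67 gate and 0.24 after thinning. The cause was not tested. Depth limits Cdkn2a most, with 19 to 51 UMIs per single-cell library. No paired analysis was possible in bulk because the lines are independent clones without shared numbers.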
